A study of Mus musculus with 28 samples.

Results

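The E2F family is a group of transcription factors that decides when the genes of DNA replication are read, and its 8 members in the mouse, E2f1 to E2f8, are described here in CD4+ T cells under TGF-β and IL-4, the cytokine pair that drives naïve cells toward the IL-9-producing Th9 fate. All 8 genes were found by symbol among the 24089 genes of the RNA-seq table, and they were taken as a family by name, not by how they behaved. E2f8, however, had been picked out by the study from these same RNA-seq libraries, partly because it was lower with TGF-β and IL-4 together. Its values in WT cells below are not independent of that choice. RNA-seq covered 8 groups of 3 libraries, and DNase-seq covered 4 of those groups with 1 library each.

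The cells were naïve CD4+ CD62L+ T cells from spleen and lymph nodes of Tgfbr1 f/f mice carrying the tamoxifen-inducible ER-cre, on a C57BL/6 background, 8 to 10 weeks old and of both sexes. Every group shares the floxed allele and the Cre, which is expressed broadly and not in T cells alone. The WT groups came from mice given oil and the KO groups from mice given tamoxifen for 5 days, so that the TGF-β receptor I gene Tgfbr1 was deleted before the cells were taken. In every comparison of KO with WT below, the loss of Tgfbr1, the tamoxifen and the induced Cre cannot be told apart. Each genotype was stimulated through CD3 and CD28 without added cytokine (control), with either cytokine alone, or with both (TGF-β + IL-4, here also called the pair), and the methods give 2 ng/ml of TGF-β1 and 10 ng/ml of IL-4 for Th9 cultures. Libraries carry a replicate number from 1 to 3 within each genotype, and whether a number stands for 1 animal in all 4 cultures, and whether replicates are separate animals, is not given in the sources used here. The p-values then measure the spread between these libraries, which may be technical. The time of RNA harvest is also not given in the sources used here.

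E2F factors bind GC-rich sites that follow a run of T, and most of them do so with a DP partner. E2f1, E2f2 and E2f3 activate transcription at the entry into S phase once phosphorylated Rb lets them go, whereas E2f4 and E2f5 repress with the pocket proteins p107 and p130 in resting cells. E2f6 represses without pocket proteins, within a Polycomb complex. E2f7 and E2f8 are the atypical members: they carry a pair of DNA-binding domains, need no DP partner, and turn the same targets off again late in S phase, and E2f8 is itself a target of the activators. In T cells, activating E2Fs follow stimulation of the antigen receptor, which sets off rapid division.

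In the mm9 build, E2f8 (ENSMUSG00000046179.10) lies at chr7:56121799-56136966 on the minus strand. Its longest transcript starts at the outer end, and other coding transcripts start 555 bases further in, inside the first intron of the longer one. E2f7 (ENSMUSG00000020185.10), the other atypical member, lies at chr10:110182495-110224440 on the plus strand. The 300 bases before its outermost start, at chr10:110182195-110182494, are shown as an example of a window that holds an E2F motif, here any of TTTCCCGC, TTTCGCGC, TTTGCCGC and TTTGGCGC on either strand. Capitals mark the match.
E2f7 before its start: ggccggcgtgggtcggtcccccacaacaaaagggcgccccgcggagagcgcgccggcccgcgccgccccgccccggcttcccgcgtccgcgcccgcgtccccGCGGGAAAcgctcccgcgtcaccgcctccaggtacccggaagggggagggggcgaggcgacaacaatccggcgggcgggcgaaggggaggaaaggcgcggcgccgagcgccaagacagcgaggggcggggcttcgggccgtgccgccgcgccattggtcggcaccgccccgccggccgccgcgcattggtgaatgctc
The match lay at 198 to 191 bases before the start, on the strand opposite to the gene. Of 22361 protein-coding genes with a complete window before their outermost start, 547 (2.45%) held such a motif. The D-box letters TTATGTAA and TTACGTAA, which PAR bZIP factors such as DBP bind, were not in the E2f7 window, and were in 256 (1.14%) of the 22361. Matches before the starts of the other members are not reported here. A match is a description of the letters and not of a bound site, and no match says only that these letters are not in this window.

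The headings of the RNA-seq table conflict with the read counts that the study lists elsewhere, and this decides which column is which culture. For 8 WT libraries (replicates 1 and 3) read counts of 1991 to 1996 genes each are at hand, and the genes at 0 in them were compared with the genes at 0 in each column. All 8 matched the column at the place of their library number, with at least 99.85% of the genes in the same state, and the next best column reached at most 85.3%. Only 2 of the 8 stood under their own heading. The columns were therefore read in the order of library numbers, which gives 20 of the 24 columns another culture or replicate number than their heading. The 4 columns of WT replicate 2 and the 12 KO columns have no such counts, so their places were not checked in this way. All 24 columns keep their genotype in both readings. Relative depth, from the step that 1 read makes in low values, ran from 0.794 to 1.66, where WT replicate 3 under the pair is set to 1.00, and total reads are unknown.

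Tgfbr1 itself served to check the labels. It had 13.9 to 14.5 RPKM (reads per kilobase of gene, scaled to the mapped reads of the library) in the 3 WT TGF-β libraries and 17.6 to 20.7 under TGF-β + IL-4, against 2.37 to 3.24 and 3.35 to 5.18 in the KO. Without added TGF-β the genotypes were close, at 3.02 to 3.31 in WT control and 2.32 to 3.05 in KO control, and a value over the whole gene cannot separate the deleted exon from the rest. The T cell markers were high in every library (Cd3e 213 to 360 RPKM, Cd4 75.6 to 122). Of the red cell genes, Hbb-b1 and Hba-a2 were at 0 in all 24 libraries and Hba-a1 in 21, with at most 21.9 RPKM in the others. The 6 myeloid markers summed to 0.261 to 18.7 RPKM, 16.7 of it at most from Lyz2. The 6 B cell markers were measurable at sums of 8.36 to 35.6 RPKM, Cd8b1 of CD8 T cells at 11.0 to 30.4, and the 4 NK cell markers at sums of 3.58 to 11.7. In such bulk libraries, fewer cells of a type and less RNA per cell cannot be told apart.

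The family was dominated by a canonical repressor. E2f4 had 45.6 to 66.7 RPKM over the 24 libraries, and it took 60.0% to 69.5% of the summed RPKM of the 8 genes. E2f8 came next, with 4.62 to 9.83 RPKM and 6.22% to 11.6% of the sum. The activators E2f1 (3.71 to 6.31 RPKM), E2f2 (2.80 to 6.32) and E2f3 (3.49 to 5.69) and the Polycomb-linked E2f6 (3.07 to 5.08) had ranges that overlapped each other. E2f5 followed at 2.13 to 4.03 RPKM, and E2f7, the atypical partner of E2f8, was lowest at 1.04 to 1.99. RPKM is scaled by gene length, and these levels are set side by side on that scale. Removing redundant reads can compress high values, and its effect on these levels was not tested. All 8 passed the minimum mean of 1 RPKM in every comparison.

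**Figure D1:**
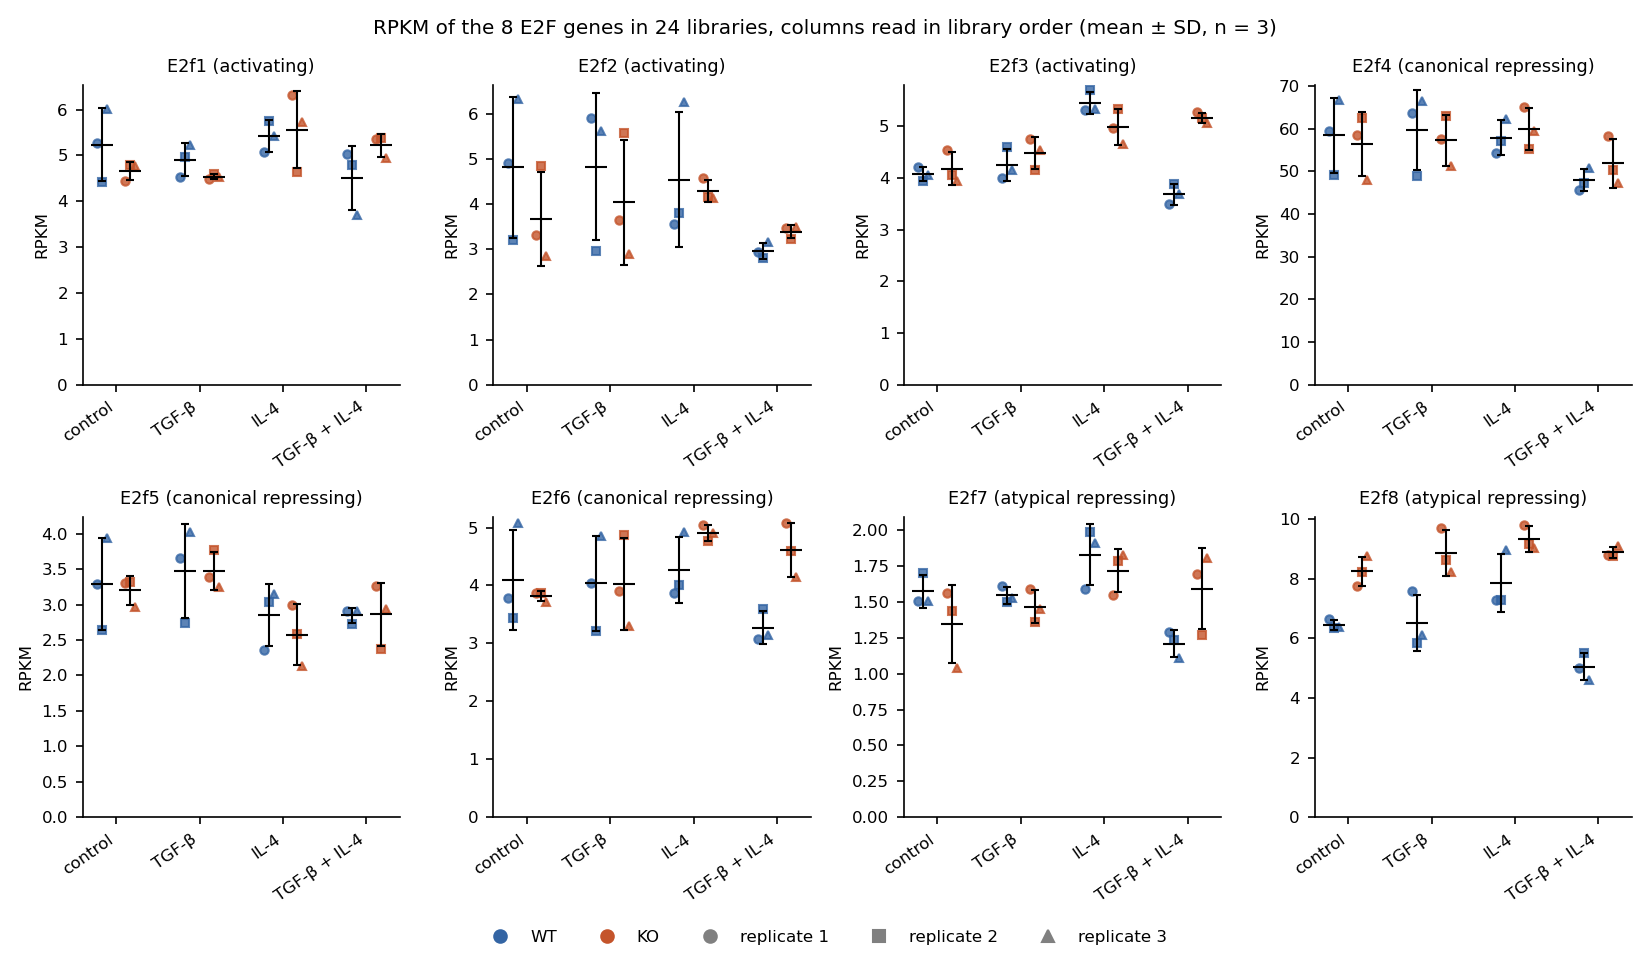
RPKM of each E2F gene (y axis, from 0) in the 4 cultures (x axis) for WT (blue) and KO (orange), with 1 symbol per replicate number and bars for the mean ± SD of 3 libraries. E2f8 is lowest in the 3 WT libraries with TGF-β + IL-4 (4.62 to 5.51) and lies between 7.77 and 9.83 in all 12 KO libraries.

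E2f8 was the member whose groups stood farthest apart for their spread. In WT control cells it had 6.66, 6.36 and 6.37 RPKM in replicates 1, 2 and 3. With TGF-β it had 7.59, 5.84 and 6.10, and with IL-4 it had 7.29, 7.29 and 8.99. With TGF-β + IL-4 the values were 5.01, 5.51 and 4.62, below every other WT library. In KO cells E2f8 had 7.77, 8.25 and 8.76 RPKM in control, and 9.72, 8.62 and 8.24 with TGF-β. With IL-4 the KO values were 9.83, 9.17 and 9.03, and with TGF-β + IL-4 they were 8.80, 8.77 and 9.11. So the combined cytokines went with the lowest E2f8 of all groups in WT and with values inside the range of the other cultures in KO. The range of the 8 group means was 0.78 on the log2(RPKM + 1) scale, 7.32 times the pooled SD of libraries within groups, and the next member by this measure was E2f3 at 6.84 times. Differences below are on that log2 scale, which understates changes of low genes.

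Across all member tests a single call was made. A gene was called at an adjusted p under 0.01 together with a fold over 1.5, with the linear model of limma across all genes and Benjamini-Hochberg adjustment, and 12 comparisons of 2 groups and 3 interactions gave 120 tests of members. The call was E2f8 in KO against WT cells under TGF-β + IL-4, and 33 of the 120 tests had an unadjusted p under 0.05. That share has to be read against a table in which 5036 of 9816 genes had one in WT TGF-β + IL-4 against control alone.

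The first question is what the Th9 cytokines did to the family in WT cells. With TGF-β + IL-4 against control, all 8 members had a log2 difference below 0, as 46.0% of the 9816 genes tested had. None of the 8 was called, where 9.27% of all genes were. An unadjusted p under 0.05 was found for 4 of the 8, beside 5036 of 9816 genes. The members had a median of -0.23, beside 0.03 over all genes. E2f8 differed by -0.31 (SE 0.08, adjusted p = 0.0106), and its groups did not overlap. E2f2 had the difference of greatest size, -0.52 (SE 0.17, adjusted p = 0.035), and its groups did not overlap either. E2f2, E2f3, E2f7 and E2f8 lay lower without overlap, 4 of 8, beside 23.8% of all genes. Relative depth was 0.826 to 1.00 in WT with the pair, below the 1.256 to 1.428 of WT control and the 1.115 to 1.435 of WT TGF-β. It overlapped the 0.9505 to 1.656 of WT IL-4. The part of depth in the differences between WT cultures was not tested.

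E2f2 had a wide spread between replicates that the other activators did not share. In WT control it had 4.90, 3.21 and 6.32 RPKM in replicates 1 to 3, and with TGF-β 5.90, 2.96 and 5.63. With IL-4 it had 3.56, 3.80 and 6.26, and with TGF-β + IL-4 2.93, 2.80 and 3.16. The combination thus gave the 3 closest values, at the low end of the other cultures, and replicate 2 was already low in control and with TGF-β. Without replicate 2, which leaves replicates 1 and 3 of each group, the ones placed by read counts, E2f2 was called. It had -0.70 (adjusted p = 0.0019) against control and -0.74 (adjusted p = 0.0006) against TGF-β. E2f1, the first E2F known, had 5.26, 4.43 and 6.02 RPKM in WT control and 5.02, 4.80 and 3.71 with the combination, and these overlapped.

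TGF-β alone and IL-4 alone called no member. For TGF-β against control the 8 differences lay between -0.07 for E2f1 and 0.06 for E2f5, none with an unadjusted p under 0.05, while 5.71% of all genes were called. For IL-4 against control, 1.29% of all genes were called. An unadjusted p under 0.05 was found for 2 of 8, beside 1686 of 9680 genes. The 2 members were E2f3 at 0.35 (SE 0.07, adjusted p = 0.022) and E2f8 at 0.24 (SE 0.09, adjusted p = 0.19). E2f3 had 4.21, 3.93 and 4.06 RPKM in WT control and 5.32, 5.69 and 5.33 with IL-4, so its groups lay apart.

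The pair was also compared with IL-4 alone, which differs from it by TGF-β. Between WT TGF-β + IL-4 and WT IL-4, 7 of the 8 members lay lower without overlap, all but E2f5, beside 26.4% of all genes. An adjusted p under 0.01 at any fold was reached by 4 of 8, all lower, beside 13.1% of all genes. E2f8 differed by -0.55 (SE 0.09, adjusted p = 0.0015), and E2f3 by -0.46 (SE 0.07, adjusted p = 0.0008). E2f7 differed by -0.36 (SE 0.09, adjusted p = 0.009) and E2f4 by -0.27 (SE 0.06, adjusted p = 0.0075). All 4 stayed under the fold of 1.5, so none of the 8 was called, where 9.28% of all genes were. An unadjusted p under 0.05 was reached by 6 of 8, beside 5195 of 9829 genes. E2f8 was close to the limit, and it was called at -0.62 with a pseudocount of 0.1, at -0.63 after quantile normalization and at -0.65 without replicate 2.

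E2f3, E2f4 and E2f7 show what these differences rest on. E2f3 had the IL-4 values given above and 3.49, 3.88 and 3.68 RPKM with the combination. E2f4 had 54.2, 57.1 and 62.3 RPKM with IL-4 and 45.6, 47.3 and 50.8 with TGF-β + IL-4. E2f7 had 1.59, 1.99 and 1.91 RPKM with IL-4 and 1.29, 1.23 and 1.11 with the combination. In each of the 3 genes the groups did not overlap. E2f5, which acts in resting cells, had 2.35 to 3.16 RPKM with IL-4 and 2.72 to 2.92 with the combination.

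Against TGF-β alone, the combination called no member, where 3.03% of all genes were called. Of the 8, 4 had an unadjusted p under 0.05, beside 3512 of 9852 genes. E2f3, E2f7 and E2f8 lay lower without overlap, 3 of 8, beside 17.7% of all genes. E2f8 differed by -0.31 (SE 0.10, adjusted p = 0.059). The TGF-β by IL-4 interaction in WT asks whether the pair did something else than the sum of its parts. It was called for 1.77% of all genes and for no member. At an unadjusted p under 0.05 there were 3 of 8 members, beside 2617 of 9794 genes. E2f3 had the lowest adjusted p, with -0.51 (SE 0.09, adjusted p = 0.0052), the only member under 0.01 at any fold, where 0.827% of all genes were, lower. It was called, at -0.61, with a pseudocount of 0.1. E2f8 had -0.55 (SE 0.14, adjusted p = 0.027).

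The activating and repressing members were compared with E2f8 directly, by testing in WT cells whether a member's log2 difference differed from that of E2f8. For WT TGF-β + IL-4 against control, none of the 7 other members was called, and none had an unadjusted p under 0.05. In this test 20.0% of all genes were called. The values of E2f8 enter every one of these tests, and the median over all genes was -0.33. The 20.0% thus includes the fall of E2f8 itself and is no neutral background for the members. The difference of E2f8 minus that of the member ran from -0.19 (SE 0.11, adjusted p = 0.14) for E2f3 to 0.21 (SE 0.15, adjusted p = 0.21) for E2f2. For TGF-β against control the differences ran from -0.06 for E2f5 to 0.07 for E2f1, with no call and no unadjusted p under 0.05, and 6.27% of all genes were called. A test that misses its threshold does not show that activators and repressors responded alike.

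**Figure D2:**
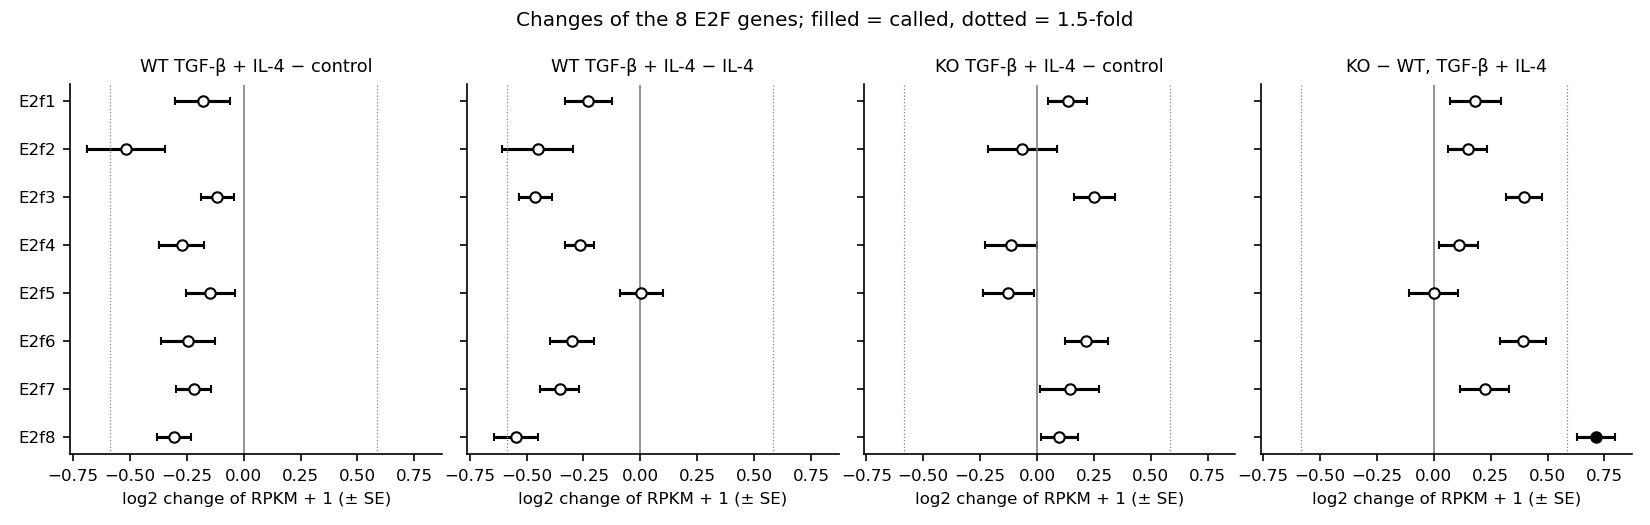
Difference of log2(RPKM + 1) of each E2F gene (x axis, points ± SE of the model) in 4 comparisons, with called genes filled and dotted lines at a fold of 1.5. All 8 points lie below 0 for the pair against control in WT, and the 1 filled point is E2f8 at 0.71 in KO against WT under TGF-β + IL-4.

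In KO cells the pair did not go with a lower family. E2f1, E2f3, E2f6 and E2f8 lay higher than in control without overlap, 4 of 8, beside 13.1% of all genes. With TGF-β + IL-4 against control no member was called, while 1.92% of all genes were. An unadjusted p under 0.05 was found for 1 of 8, beside 1430 of 9653 genes. The 8 differences ran from -0.13 for E2f5 to 0.25 for E2f3 (SE 0.09, adjusted p = 0.22), and E2f8 had 0.10 (SE 0.08, adjusted p = 0.67). With TGF-β alone 0.0105% of all genes were called, which is 1 gene, and no member, with 0 of 8 at an unadjusted p under 0.05. With IL-4 alone 2.51% of all genes and no member were called. Here 3 of 8 had an unadjusted p under 0.05, beside 1981 of 9600 genes. The difference between genotypes was tested itself. The interaction of genotype with the pair was above 0 for all 8 members and called for none, where 4.18% of all genes were called. An unadjusted p under 0.05 was found for 4 of 8, beside 2731 of 9756 genes. E2f8 had 0.40 (SE 0.10, adjusted p = 0.020) and E2f3 0.37 (SE 0.10, adjusted p = 0.029). For the interaction of genotype with TGF-β alone, no member was called and none had an unadjusted p under 0.05, where 4.71% of all genes were called, and E2f8 had 0.09 (SE 0.13, adjusted p = 0.77).

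E2f8 was higher in KO than in WT cells under TGF-β + IL-4, by 0.71 (SE 0.08, adjusted p = 0.0006), which is 1.64-fold on the RPKM + 1 scale. It was the only call of 8 members, where 8.44% of all genes were called. At an unadjusted p under 0.05 there were 3 of 8 members, beside 4415 of 9851 genes. The call depends on replicates 1 and 3: without replicate 1 of both genotypes the difference was 0.72 (adjusted p = 0.022), without replicate 3 it was 0.65 (adjusted p = 0.020), and neither was called. Without replicate 2 it was 0.78 and called (adjusted p = 0.0009). Leaving out only WT replicate 2, whose place in the table was not checked by read counts, also kept the call, at 0.77 (adjusted p = 0.0027, an alternative chosen after seeing the data). With the columns as headed, E2f8 had 6.10, 8.99 and 4.62 RPKM in WT and 8.24, 9.03 and 9.11 in KO under this culture, a difference of 0.41 (adjusted p = 0.31).

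The other members followed E2f8 in part under this culture. E2f2, E2f3, E2f6 and E2f8 lay higher in KO without overlap, 4 of 8, beside 26.9% of all genes. E2f3 differed by 0.40 (SE 0.08, adjusted p = 0.0071), and its values were 5.27, 5.15 and 5.07 RPKM in KO against 3.49, 3.88 and 3.68 in WT. E2f6 differed by 0.39 (SE 0.10, adjusted p = 0.018), from 3.07, 3.60 and 3.14 RPKM in WT to 5.08, 4.60 and 4.15 in KO. Both stayed under the fold of 1.5. E2f5 differed by less than 0.01 on the log2 scale, -0.0009 (SE 0.11).

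In the other 3 cultures E2f8 also had higher values in KO cells, without a call. In control the difference was 0.31 (SE 0.07, adjusted p = 0.024), with TGF-β 0.40 (SE 0.10, adjusted p = 0.015) and with IL-4 0.23 (SE 0.09, adjusted p = 0.13). In each of these 3 cultures E2f8 was the single member that lay higher in KO without overlap, 1 of 8, beside 19.7%, 26.1% and 19.6% of all genes. E2f8 was also the only member with an unadjusted p under 0.05 in each of them. Of all genes, 2903 of 9644, 4673 of 9687 and 2718 of 9679 had one. No member was called in these 3 comparisons, where 2.46%, 9.68% and 2.99% of all genes were.

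Other measures of these libraries are given beside this result. The 6 T cell markers summed to 1405 to 1469 RPKM in WT with TGF-β + IL-4, above the 1071 to 1245 of the other WT libraries and the 1070 to 1196 of KO with TGF-β + IL-4. The B cell markers summed to 16.6 to 35.6 RPKM in WT with the pair and to 15.4 to 27.3 in KO with it, ranges that overlap. The myeloid markers, of which Lyz2 alone reached the minimum, summed to 7.49 to 17.03 and 2.297 to 4.600, which do not overlap. Nor do the NK cell markers, at 5.20 to 6.33 in WT with the pair and 6.99 to 9.66 in KO with it, and of the 3 tested 2 were called higher and 1 lower in KO. Of the 2 CD8 T cell markers 1 was called lower in KO, and their sums were 25.3 to 26.7 and 26.3 to 28.3. Relative depth was 0.826 to 1.00 in WT with TGF-β + IL-4 and 0.794 to 1.32 in KO with it. The part of these measures in the E2f8 result was not tested.

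Set against the activators or against E2f7, E2f8 separated the genotypes in every library. Its share of the summed RPKM of all 8 members overlapped, at 6.22% to 9.14% in WT and 8.87% to 11.6% in KO. So did E2f8 alone, at 4.62 to 8.99 RPKM in WT and 7.77 to 9.83 in KO. The ratio of E2f8 to the summed RPKM of the activators E2f1, E2f2 and E2f3 was 0.388 to 0.549 in the 12 WT libraries and 0.602 to 0.758 in the 12 KO libraries. The ratio of E2f8 to E2f7, the other atypical member, was 3.66 to 4.70 in WT and 4.94 to 8.40 in KO. Neither ratio overlapped between genotypes, in any culture, whereas the activator sum (medians of 14.2 RPKM in WT and 13.7 in KO) and E2f7 (1.11 to 1.99 and 1.04 to 1.83) did overlap. Both ratios were looked at after the values of E2f8 were seen, so they are given without a test. They do not depend on which culture a column belongs to, because all columns keep their genotype in both readings. How many other genes would separate the genotypes in such ratios was not counted. The gap in the ratio to E2f7 was narrow, 4.70 against 4.94, and E2f7 at 1.04 to 1.99 RPKM rests on few reads. Within WT, the cytokine pair left the ratios inside the range of the other cultures, at 0.438 to 0.480 for the activators and 3.88 to 4.47 for E2f7.

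**Figure D3:**
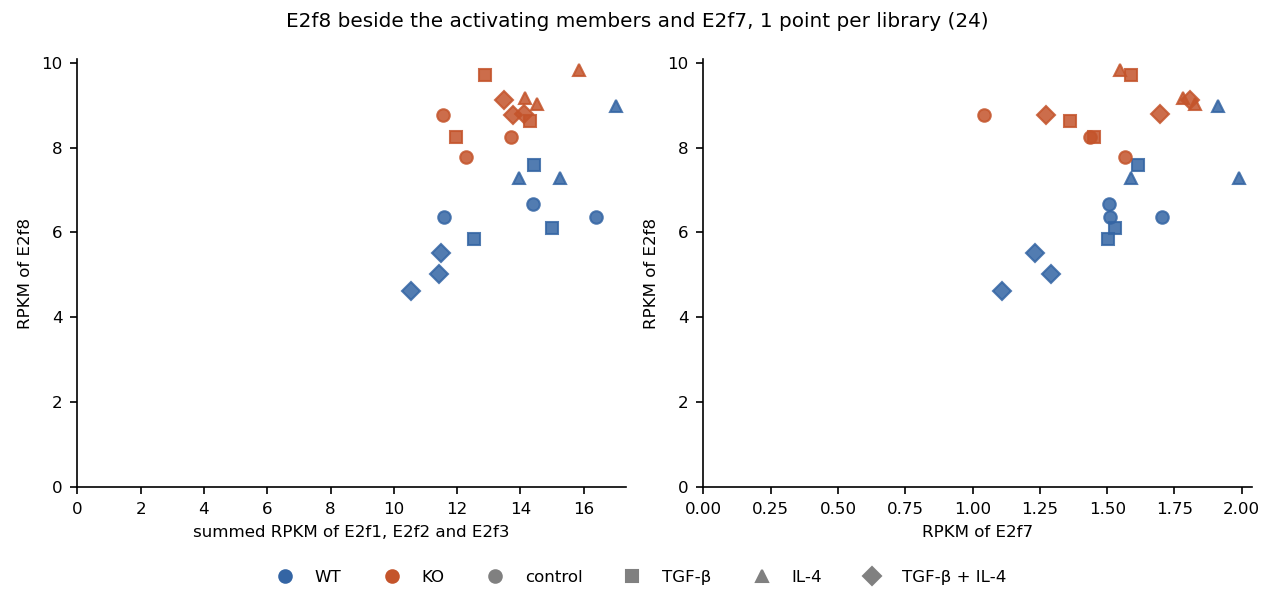
RPKM of E2f8 (y axis) against the summed RPKM of E2f1, E2f2 and E2f3 (left) or the RPKM of E2f7 (right), with 1 point per library, color for the genotype and shape for the culture. At like values on the x axis the 12 KO points lie above the 12 WT points, with ratios to the activators of 0.602 to 0.758 against 0.388 to 0.549.

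The genes most like E2f8 over the 24 libraries were not members of the family. By Pearson r of log2(RPKM + 1), the 10 highest of 9725 genes were Nup37 (r = 0.96), Ska1 (0.96), Ccne1 (0.96), Ccnf (0.96), Cdca5 (0.95), Arhgap11a (0.95), Ccna2 (0.95), Fbxo5 (0.95), Dscc1 (0.95) and Bora (0.95). Ccne1 encodes cyclin E1, which drives entry into S phase, Ccna2 encodes cyclin A2, and Fbxo5 encodes Emi1, which holds back the anaphase-promoting complex. These points share genotypes and cultures, and the correlation is a description. Within the family E2f3 came first (0.63), then E2f6 (0.59), E2f7 (0.40), E2f4 (0.32), E2f1 (0.28) and E2f2 (0.21), and E2f5 was at -0.04. Within the 12 WT libraries alone E2f7 came first in the family, with 0.87, and within the 12 KO libraries it had 0.27. The 10 genes above had r from 0.87 (Bora) to 0.97 (Ska1) within WT. Within KO they had lower values, from 0.45 (Ska1) to 0.85 (Bora). By Spearman's rho 4 of the 10 genes were again among the 10 highest, and within WT 2 of the 10.

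Regulators of the family were taken from lists by function. Of the 5 pocket proteins and DP partners, 1 was called in WT cells with the pair against control, and it rose, where 6.43% of all genes were called higher. This was Rbl2, which encodes p130, the pocket protein that joins E2f4 in quiescent cells. Rbl2 had 4.24, 4.66 and 4.75 RPKM in WT control and 7.16, 7.61 and 7.31 with the cytokine pair, a difference of 0.59 (SE 0.07, adjusted p = 0.0002). Of 6 MuvB and B-Myb genes 1 fell, where 2.84% of all genes were called lower. This was Mybl2, at -0.67 (SE 0.10, adjusted p = 0.0008). Mybl2 encodes B-Myb, which takes the place of pocket proteins on MuvB as cells divide, and it had 30.2, 23.9 and 31.7 RPKM in control and 16.0 to 18.5 with the pair. Of the 15 cyclins, CDKs and CDK inhibitors upstream of Rb, 11 passed the minimum and none was called, with values from -0.49 (SE 0.22) for the inhibitor Cdkn2c to 0.57 (SE 0.07) for the inhibitor Cdkn1b, which is p27. Of the 10 partners of E2f6 in its Polycomb complex none was called, from -0.22 for L3mbtl2 to 0.44 for Max.

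Of 35 G1/S genes that E2Fs are known to regulate, all passed the minimum, and in WT TGF-β + IL-4 against control 1 fell and 34 were not called. That is close to the 2.84% of all genes called lower, and so is no result about the list. The one that fell was Tk1, thymidine kinase, which makes a DNA precursor, at -0.60 (SE 0.07, adjusted p = 0.0002). It had 69.0, 65.0 and 64.7 RPKM in control and 43.9, 47.8 and 38.8 with the pair. The median of the 35 was -0.12, beside 0.03 over all genes. Against IL-4 alone the pair lowered 4 of the 35, Tk1 (-0.92), Rrm2 (-0.73), Ccna2 (-0.71) and Ezh2 (-0.63), and the median was -0.24, where 3.21% of all genes were called lower. In KO TGF-β + IL-4 against control none of the 35 was called, and the median was 0.07.

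Between genotypes, none of the 35 was called in control or with IL-4, and 1 was called higher in KO with TGF-β, where 3.15% of all genes were. Under TGF-β + IL-4, 5 of the 35 rose in KO against WT, among them Tk1 (1.03), Ccna2 (0.83), Rrm2 (0.78) and Mcm10 (0.73), and 30 were not called, where 2.71% of all genes were called higher. All 35 differences were above 0, as 51.2% of all genes had them, with a median of 0.38 beside 0.01 over all genes. Tk1 had 91.3, 84.5 and 93.1 RPKM in KO with the pair. Rrm2 encodes a subunit of ribonucleotide reductase and Mcm10 acts in the start of replication. The interaction of genotype with the pair was called for 2 of the 35, Tk1 (0.76) and Rrm2 (0.69), where 1.40% of all genes were called above 0. Of the 11 tested cyclins, CDKs and inhibitors, Ccne1 rose in KO with the pair, at 0.74, and the inhibitors Cdkn1b (-0.94) and Cdkn2d (-0.59) fell, where 5.73% of all genes were called lower. The genes named in this paragraph, and Rrm2, Ccna2 and Ezh2 in the one before, were picked as the called members of their lists after the values were seen. Tk1 was picked by its call in WT with the pair against control. Its other values share the WT libraries with the pair, so they are not independent of that call. Lists of genes that share a regulator and a phase of the cell cycle are not independent measurements.

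DNase-seq showed open chromatin at the starts of the family. A DNase I hypersensitive site (DHS) of at least 1 bp lay within 1000 bp of the outermost start of all 8 members in both control lists and in WT cells with the pair, and of 7 in KO cells with the pair. Of 22367 protein-coding genes 47.8%, 46.2%, 46.2% and 44.1% had such a DHS in WT control, WT with the pair, KO control and KO with the pair, the order used below. The lists held 44298, 33880, 33665 and 27145 DHSs in that order, each from 1 library with unknown depth, so the conditions have no replicate check and no test. The member without a DHS at its outermost start was E2f2 in KO with the pair. It had the weakest start DHS of the family in the other lists, with fold enrichments over the local background of 5.10, 4.62 and 3.42. The list without it is the shortest. Another coding transcript of E2f2 starts further in, at chr4:135736721. Before that inner start a DHS lay at chr4:135735912-135736201 in KO with the pair.

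The DHS of E2f8 was not at its outer start. Its summit lay 71, 64, 82 and 55 bases before the inner start, which is 473 to 500 bases downstream of the outer one. Its fold enrichments were 10.1, 8.73, 8.46 and 6.30 in that order, beside list medians of 5.63, 5.25, 4.69 and 4.87. By enrichment it stood in the top 12.3%, 15.4%, 10.1% and 26.8% of its list. E2f1 had the same order of enrichments, 9.80, 9.58, 7.52 and 6.06, whereas E2f5 had 9.63, 10.3, 10.4 and 9.65. E2f3 had the highest enrichment of the family in both WT lists and in KO with the pair (13.1, 11.8 and 11.1), and in KO control it had 10.35 beside 10.40 for E2f5, at a DHS whose summit lay 513 to 554 bases upstream of its start. The summits of E2f1, E2f2, E2f4, E2f5, E2f6 and E2f7 lay 15 to 250 bases upstream of theirs.

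**Figure D4:**
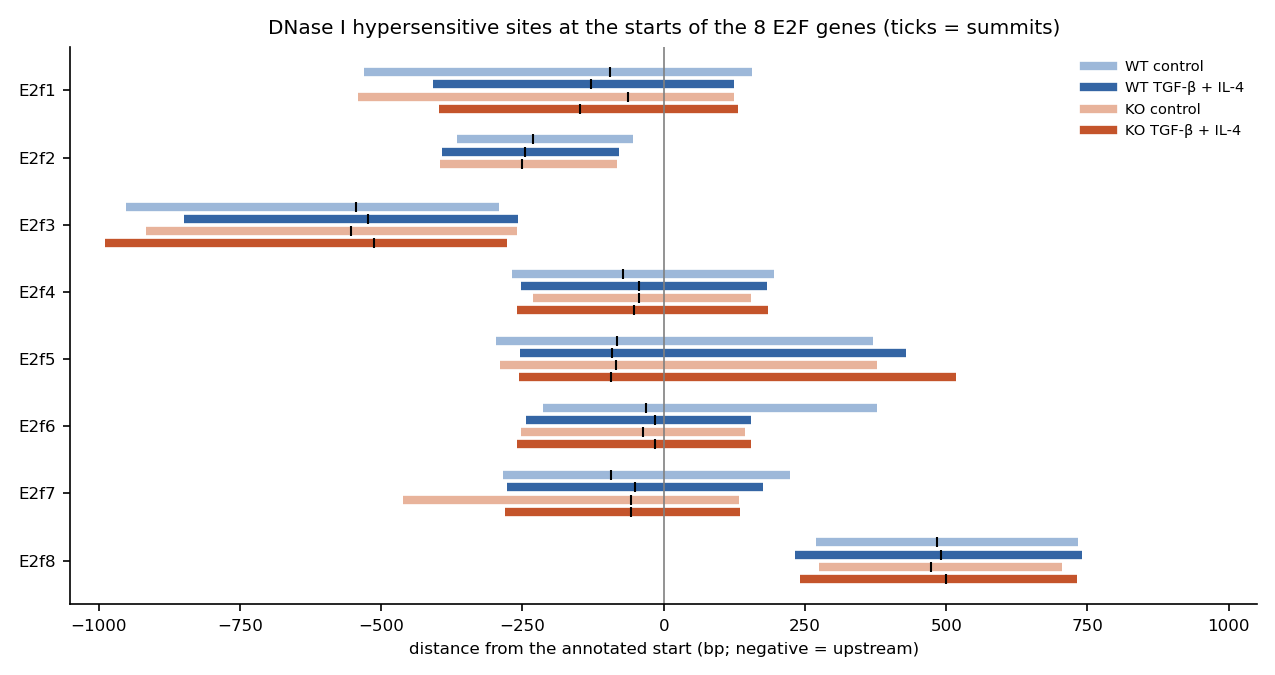
DHSs within 1000 bp of the outermost annotated start of each E2F gene (x axis, distance in bp, negative upstream), with 1 bar per DNase-seq library and a tick at the summit. E2f8 has its DHS summits 473 to 500 bases downstream of the outer start, and E2f2 has no bar for KO TGF-β + IL-4.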

How the data were processed

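RNA-seq libraries (Smart-seq2, polyA RNA) and DNase-seq libraries were mapped by the authors to mm9 with Bowtie2. They dropped poorly mapped reads and kept 1 copy of redundant ones, and tool versions are not given in the sources used here. The authors deposited RPKM per gene, which are not counts, and peak lists called by MACS2 per library, with a fold enrichment ratio and −log10 p and q values. Removing redundant reads can compress high RPKM values.

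RPKM were analysed as log2(RPKM + 1) with limma 3.58.1 in R 4.3.3 (trend on mean expression), for genes whose mean over the compared libraries reached 1 RPKM, in each of 17 comparisons, and adjusted over all genes tested. Calls needed an adjusted p under 0.01 and a fold over 1.5, after the study's thresholds. The fit was tested on simulated data. Each group has 3 replicates.

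Columns were read in library order, as the report describes. Members and lists were chosen with earlier results of these data known. By rule the text names the 8 members, the called (or else the extreme) genes of each list in WT TGF-β + IL-4 against control, the 10 genes most like E2f8, and Tgfbr1.

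Gene positions are from GENCODE vM1 and sequences from the NCBIM37 genome, the same build as mm9, read with pysam 0.24.0. Some promoter sequences and 1 gene of a list are not reported here. Python 3.11.15 and pandas 2.3.3 were used for DHS overlaps, and DHS coordinates are 1-based. Alternatives were a pseudocount of 0.1, no minimum or a minimum of 5 RPKM, median-ratio scaling, quantile normalization, all 24 libraries in 1 fit, no trend, an adjusted p under 0.05, leaving out each replicate number, the replicate block, the columns as headed, the 8 identified WT libraries, and for DHSs 250 bp, a −log10 q minimum of 5 and equally long lists.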

Additional observations from a re-analysis of the deposited data

How the results depend on the processing

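The number of members called was the same in 218 of 231 pairs of a comparison with an alternative, and most of these counts are 0. It was 1 in place of 0 for E2f2 in WT TGF-β + IL-4 against control and against TGF-β with the 8 identified libraries (leaving out single replicates: 0 to 1 in both), and for E2f8 in WT TGF-β + IL-4 against IL-4 with a pseudocount of 0.1, after quantile normalization and with the 8 identified libraries (leaving out single replicates: 0 to 1). It was also 1 for E2f3 in the TGF-β by IL-4 interaction with a pseudocount of 0.1, and 0 to 1 on leaving out single replicates in KO against WT under TGF-β, where E2f2 was called without replicate 2 (-0.67, adjusted p = 0.0025). In KO against WT under TGF-β + IL-4 it was 0 in place of 1 with the columns as headed, and 0 to 1 on leaving out single replicates. The cause was not tested. With the replicate block, 0 members were called in every comparison in which the block could be fitted, as without it. The block moved the genes called in KO TGF-β + IL-4 against control from 185 to 88 and in KO TGF-β against control from 1 to 2, and other counts by less than 1.5 times. No source says that the numbers pair libraries: deviations from group means of same-numbered libraries correlated between -0.09 and 0.55 in WT and between -0.30 and 0.42 in KO, and 8 of 12 WT and 10 of 12 KO libraries correlated best with one of their own number, a hint from the data and not the design. With columns as headed, 0 genes of the whole table were called in 15 of 17 comparisons, where the library order called 1 to 938. Of 1725 member values under alternatives, 1567 kept direction and call, 145 changed sign with no call in either fit, 10 gained a call, 3 lost one and none that was called in either fit changed sign. In comparisons within WT, leaving out replicate 2 gives the same fit as the 8 identified libraries. That fit is counted under both names here and in the 231 pairs. Scaling moved the median of all genes by less than 0.1. Of the 10 genes most like E2f8, 4 remained by Spearman's rho and 2 within WT. Under the DHS alternatives 6 to 8 members kept a start DHS in each list. E2f3 and, in both control lists, E2f8 had none within 250 bp of the outer start. RPKM below 2, as for E2f7, rest on few reads, and the total depth is unknown.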

Other observations

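E2f2 had the most DHSs inside the gene among the 8 members in each list. In both control lists and in WT with the pair (TGF-β + IL-4) 4 DHSs lay in its body, beyond 1000 bp of the outermost start, and in KO with the pair there were 2. The strongest in WT control, at chr4:135745842-135746146, had fold enrichments of 6.28, 6.90, 5.12 and 3.48 in WT control, WT with the pair, KO control and KO with the pair, above those of the start DHS in each list that has both. No other member had more than 2 body DHSs in any list. Some of the body DHSs of E2f2 lie before an annotated inner coding start at chr4:135736721. In WT control these were at chr4:135735917-135736227 and chr4:135736374-135736674.

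The 5 germline genes that E2f6 is known to silence were near 0 throughout, and none passed the minimum of 1 RPKM. Stag3, a meiotic cohesin subunit, had 0.0675 to 0.432 RPKM and Tuba3a at most 0.207. Smc1b and Slc25a31 were listed at 0 in 13 of 24 libraries each, and Tex101 in all 24.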
